A study of Mus musculus with 9 samples.

Results

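Rods detect light through a chain of proteins that runs from the G protein transducin to a cation channel of the outer segment. The 8 genes of this activation cascade were taken by symbol from the platform annotation: Gnat1, Gnb1, Gngt1, Pde6a, Pde6b, Pde6g, Cnga1 and Cngb1. All 8 were found, each with 1 probe set, among 24259 genes measured. Their log2 intensities were compared in mouse retinas at postnatal day 8 (P8), on 9 Affymetrix whole-transcript arrays. The groups were Rb/p107 double knockout (labelled Rb/p107 DKO, DKO below), Rb knockout (Rb KO) and wild type (WT), with 3 biological replicates each. Every mouse was of the mixed strain C57Bl/6x129SvJ. The labels name neither the promoter or Cre driver behind the knockouts nor the share of cells that lost the gene, and they do not say whether retinas were pooled. Rb and p107 are pocket proteins, which restrain the E2F factors that drive cells into S phase.

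In the dark, cyclic GMP holds the channel of the rod outer segment open. Light leads the α subunit of transducin (Gnat1) to bind GTP and part from its β and γ subunits (Gnb1 and Gngt1). The freed α subunit takes the inhibitory γ subunit (Pde6g) off the catalytic α and β subunits of phosphodiesterase 6 (Pde6a and Pde6b). The enzyme then breaks down cyclic GMP, and the channel, built from Cnga1 and Cngb1 subunits, closes. In the mouse, rods are among the last retinal cells to be born, and their outer segments are still growing at the age sampled here. Loss of function of several of these genes causes rod disease in mice and people.

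Values are log2 intensities from robust multi-array averaging (RMA), so a difference of 1 is a factor of 2 in intensity. Levels are compared only within a gene, since probe sets differ in how strongly they bind. A reading was taken as above background when it passed the 95th percentile of that array's negative controls, which lay at 7.94 to 8.50 in the 9 arrays. On each array 27.2% to 36.4% of all genes passed it. Rb1, the targeted gene, read 9.74 to 10.001 in DKO, 9.846 to 10.017 in Rb KO and 10.005 to 10.465 in WT at its brightest probe set, and the other probe sets of this gene were not above background on any array. Against WT the log2 fold change of Rb1 was -0.36 in DKO (limma, adjusted p = 0.0423) and -0.31 in Rb KO (adjusted p = 0.0793). Differences this small were not taken as a check of the labels. The p107 gene (Rbl1) was not analysed here. DKO replicate 2 stood apart in its lens markers (mean log2 intensity of 4 genes 9.66, against 7.84 and 7.55 in the other DKO arrays) and in Xist (5.47, against 12.038 and 11.983 in the other DKO arrays).

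All 8 cascade genes were lower in both mutants than in WT. In DKO against WT 8 of 8 fell, with a median log2 fold change of -1.45 (range -1.61 to -0.45). In Rb KO against WT 8 of 8 fell as well, with a median of -1.31 (range -2.39 to -0.39). The median over all genes was -0.06 and -0.05 in the same comparisons. Genes were called by limma at a Benjamini-Hochberg adjusted p under 0.05 over all genes. By that rule 17.1% of all genes fell in DKO against WT and 14.3% in Rb KO against WT. All shares of all genes count 15020 genes, of 24259, that were not above background on any array. Shares among the detected genes alone were not computed. For every one of the 8 genes the lowest WT array lay above the highest array of either mutant. Such a separation, with the mutant lower, was seen for 26.5% of all genes in DKO against WT and for 21.5% in Rb KO against WT. Both comparisons use the same WT arrays. A test for any difference among the 3 groups called 8 of 8 genes, against 28.7% of all genes. In whole retinas, fewer rods and less RNA per rod cannot be told apart. All 8 genes stayed above background on all 9 arrays, so each fold change below rests on measured levels in both groups.

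**Figure D1:**
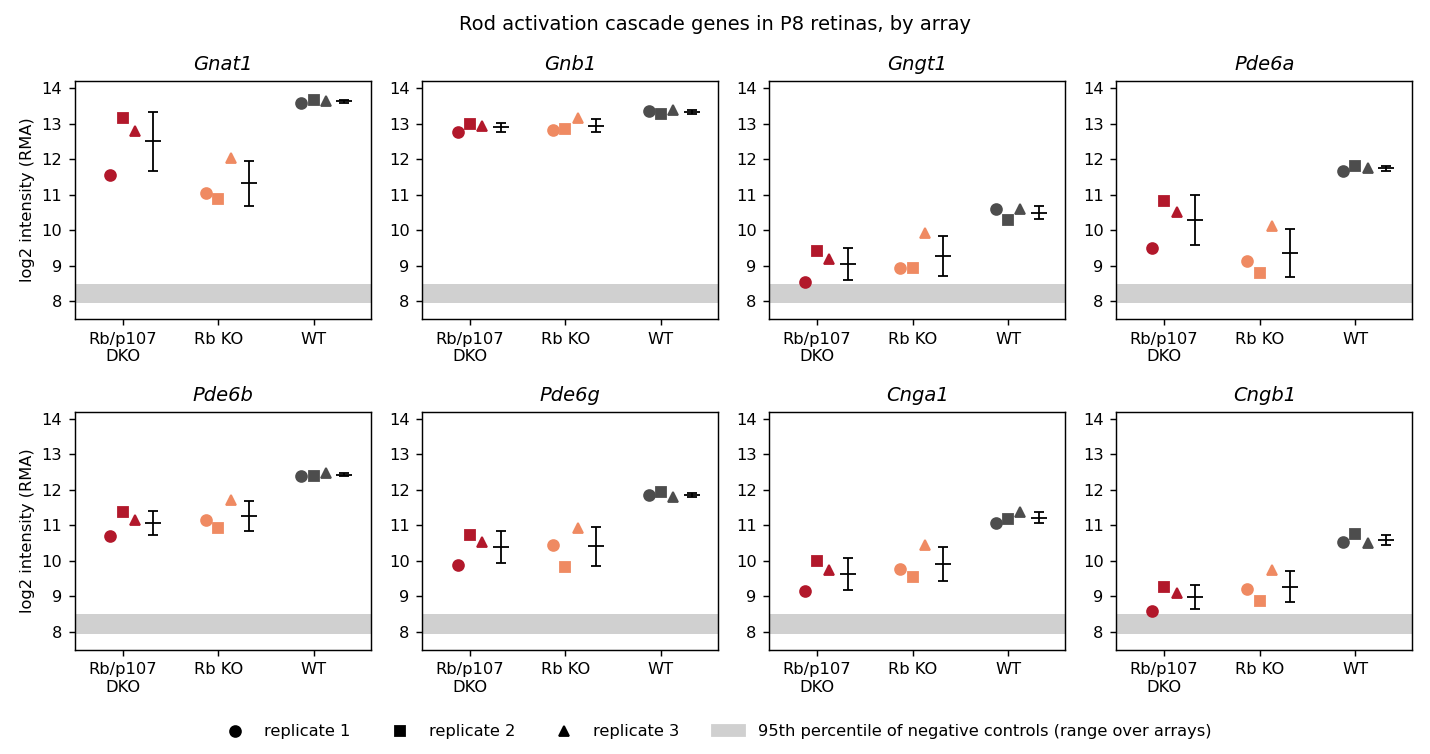
Log2 intensity (RMA) of each cascade gene on every array, in DKO, Rb KO and WT retinas at P8, with the mean and SD of the 3 arrays of a group to the right of its points. The grey band is the range of the background percentile (7.94 to 8.50). The WT points lie above all mutant points in every panel, and the 3 WT arrays lie closer together than the mutant arrays.

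The DNA upstream of these genes is shown because photoreceptor factors are known to act there, and their own levels are described further on. RefSeq windows of 300 bases, from 250 before to 50 after the start of transcription in GRCm38.p6, were used for 5 of the 8 genes. No window was used for Gnat1, Pde6a and Pde6g. The search for cascade genes skipped a chromosome that the counts over all windows kept. A window there for any of these missing genes would have been left out. The counts for cascade genes and the shares of all windows below were thus not drawn alike. Each window is printed 5′ to 3′ on the strand of its gene. Capitals mark TAATCC or the shorter TAATC inside it, the core read by the homeodomain factors CRX and OTX2, and TGCTGA, part of the site of the rod factor NRL. Both strands were searched.
Cngb1, chr8:95306536-95306835, minus strand: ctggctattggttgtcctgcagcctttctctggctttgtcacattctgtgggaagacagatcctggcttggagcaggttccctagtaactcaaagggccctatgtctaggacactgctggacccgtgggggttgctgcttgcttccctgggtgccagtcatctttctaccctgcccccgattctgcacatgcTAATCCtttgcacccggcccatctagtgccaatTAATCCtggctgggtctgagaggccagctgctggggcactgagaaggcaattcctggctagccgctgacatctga
Gngt1, chr6:3993758-3994057, plus strand: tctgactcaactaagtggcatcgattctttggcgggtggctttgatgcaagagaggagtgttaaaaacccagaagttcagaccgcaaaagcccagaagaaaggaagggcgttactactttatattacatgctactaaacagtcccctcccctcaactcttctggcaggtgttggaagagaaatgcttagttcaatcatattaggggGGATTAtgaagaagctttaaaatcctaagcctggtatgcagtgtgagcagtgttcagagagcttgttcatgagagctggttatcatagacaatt
Pde6b, chr5:108388123-108388422, plus strand: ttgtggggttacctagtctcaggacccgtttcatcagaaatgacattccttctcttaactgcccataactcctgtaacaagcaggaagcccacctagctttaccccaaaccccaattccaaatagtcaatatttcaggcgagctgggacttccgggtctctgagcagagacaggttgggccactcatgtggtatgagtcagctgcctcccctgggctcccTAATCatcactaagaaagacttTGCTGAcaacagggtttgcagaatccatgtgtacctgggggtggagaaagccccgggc
Cnga1, chr5:72642703-72643002, minus strand: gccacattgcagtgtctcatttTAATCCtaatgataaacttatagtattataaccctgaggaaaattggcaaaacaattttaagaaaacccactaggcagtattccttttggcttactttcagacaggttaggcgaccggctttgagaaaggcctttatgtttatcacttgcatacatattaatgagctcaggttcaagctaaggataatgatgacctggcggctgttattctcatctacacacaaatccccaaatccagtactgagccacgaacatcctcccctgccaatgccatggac
Gnb1, chr4:155491111-155491410, plus strand: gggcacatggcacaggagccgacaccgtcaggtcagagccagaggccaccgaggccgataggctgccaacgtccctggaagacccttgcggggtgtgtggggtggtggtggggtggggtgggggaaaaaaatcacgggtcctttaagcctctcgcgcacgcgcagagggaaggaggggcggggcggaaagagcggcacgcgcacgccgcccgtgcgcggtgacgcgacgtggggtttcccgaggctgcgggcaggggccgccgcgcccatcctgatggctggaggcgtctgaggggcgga

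Counted from the start of transcription, the Cngb1 window held TAATCC at -58 to -53 and at -25 to -20. The Gngt1 window held it once, on the opposite strand, at -44 to -39, and the Cnga1 window once at -228 to -223. In the Pde6b window TAATC lay at -30 to -26 and TGCTGA at -8 to -3. The Gnb1 window held none of these letters. TAATCC was thus in 3 of the 5 windows, against 2320 (7.06%) of all 32851 windows of the table. TGCTGA was in 1 of 5, against 6401 (19.5%) of the same 32851. TAATC was in 4 of 5, against 7228 of the same 32851, so this shorter core is common, more so than TGCTGA. A pair of TAATCC matches, as in Cngb1, was in 118 (0.36%) of all windows. A match is a run of letters and was not tested as a binding site.

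The α subunit of transducin showed the widest difference between the mutants. Gnat1 read 11.57, 13.15 and 12.79 in DKO, 11.04, 10.88 and 12.04 in Rb KO, and 13.58, 13.66 and 13.65 in WT. The WT arrays were nearly level, Rb KO replicates 1 and 2 lay lowest, and DKO replicate 1 lay below the other DKO arrays and below Rb KO replicate 3. The log2 fold change was -1.13 (SE 0.373, adjusted p = 0.0423) in DKO against WT, which is 2.19-fold lower. In Rb KO against WT it was -2.31 (SE 0.373, adjusted p = 0.0012), which is 4.97-fold lower. The DKO call was the least firm of all. It ended when 1 of 6 arrays was left out: DKO replicate 1 or 3, the first Rb KO replicate, or any WT replicate. The adjusted p was then 0.0549 to 0.126, and without DKO replicate 1 the value shrank to -0.66. The highest reading of any probe set was 13.911 to 14.001 on the 9 arrays, so the WT level of Gnat1 lay near the top of the scale.

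Gnb1, whose β subunit serves many G proteins and many cell types besides rods, changed least. Its readings were 12.76, 12.98 and 12.93 in DKO, 12.82, 12.85 and 13.16 in Rb KO, and 13.35, 13.28 and 13.39 in WT. The mutant arrays lay just below the WT arrays, with a gap of only 0.12 between the highest Rb KO and the lowest WT reading. Gnb1 fell by 0.45 in DKO against WT (SE 0.101, adjusted p = 0.00697) and by 0.39 in Rb KO against WT (SE 0.101, adjusted p = 0.0163). The Rb KO call ended without Rb KO replicate 1 or 2 (adjusted p = 0.0648 and 0.0683). Like Gnat1 in WT, Gnb1 read high against the array maxima (13.911 to 14.001). The part of this in its small fall was not tested.

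Gngt1 encodes the γ subunit that transducin uses in rods. It read 8.54, 9.40 and 9.18 in DKO, 8.93, 8.94 and 9.92 in Rb KO, and 10.6, 10.29 and 10.59 in WT. DKO replicate 1 was the lowest of the 9 arrays and lay just above background, and no mutant array reached the WT range. Gngt1 fell by 1.45 in DKO against WT (SE 0.270, adjusted p = 0.00221) and by 1.23 in Rb KO against WT (SE 0.270, adjusted p = 0.00729), or 2.74-fold and 2.34-fold.

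Phosphodiesterase 6 subunits all fell. Pde6a, the catalytic α subunit, read 9.50, 10.83 and 10.51 in DKO, 9.14, 8.79 and 10.11 in Rb KO, and 11.67, 11.81 and 11.74 in WT. As with Gnat1, most Rb KO arrays lay below the DKO arrays, while Rb KO replicate 3 lay above DKO replicate 1. The log2 fold change was -1.46 (SE 0.350, adjusted p = 0.00951) in DKO against WT and -2.39 (SE 0.350, adjusted p = 6.54e-04) in Rb KO against WT, or 2.75-fold and 5.24-fold lower. Ordered from the largest fall among all 24259 genes, Pde6a took place 142 in DKO against WT and place 10 in Rb KO against WT.

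Pde6b, the catalytic β subunit that pairs with Pde6a, fell by about the same amount in both mutants. Its readings were 10.7, 11.37 and 11.16 in DKO, 11.14, 10.92 and 11.73 in Rb KO, and 12.41, 12.41 and 12.48 in WT. The WT arrays were nearly level, and the mutant arrays lay at least 0.68 below them. Pde6b fell by 1.35 in DKO against WT (SE 0.200, adjusted p = 5.29e-04) and by 1.17 in Rb KO against WT (SE 0.200, adjusted p = 0.00175), or 2.56-fold and 2.25-fold. The subunits of 1 catalytic pair thus had different falls in Rb KO, 5.24-fold for Pde6a and 2.25-fold for Pde6b, a contrast between genes that was not tested.

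Pde6g, the inhibitory subunit, read 9.89, 10.74 and 10.53 in DKO, 10.46, 9.84 and 10.93 in Rb KO, and 11.85, 11.93 and 11.82 in WT. Mutant arrays overlapped with each other over most of their range and lay at least 0.88 below WT. The fall was nearly equal in the mutants, with a log2 fold change of -1.48 (SE 0.259, adjusted p = 0.00152) in DKO against WT and -1.46 (SE 0.259, adjusted p = 0.00216) in Rb KO against WT.

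Both channel genes were lower, by similar amounts. Cnga1, the subunit that forms the conducting channel, read 9.14, 10.01 and 9.73 in DKO, 9.76, 9.54 and 10.44 in Rb KO, and 11.08, 11.19 and 11.38 in WT. It fell by 1.59 in DKO against WT (SE 0.242, adjusted p = 6.39e-04) and by 1.30 in Rb KO against WT (SE 0.242, adjusted p = 0.00281), which left 33.3% and 40.6% of the WT intensity. Cngb1, the modulatory subunit, read 8.60, 9.26 and 9.10 in DKO, 9.22, 8.88 and 9.74 in Rb KO, and 10.53, 10.75 and 10.5 in WT. Again no mutant array reached the WT range, and DKO replicate 1 was the lowest of the 9. Cngb1 had the largest fall of the 8 genes in DKO against WT, -1.61 (SE 0.211, adjusted p = 2.45e-04, 3.05-fold), and stood at -1.31 (SE 0.211, adjusted p = 0.00117, 2.48-fold) in Rb KO against WT.

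**Figure D2:**
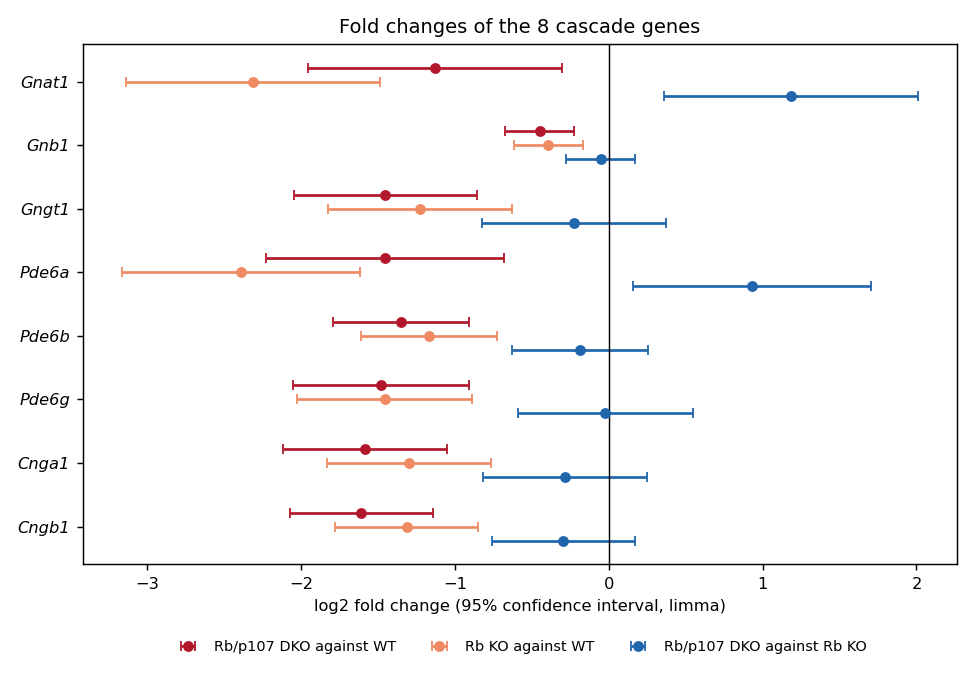
Log2 fold change of each cascade gene with its 95% confidence interval from limma, for DKO against WT, Rb KO against WT and DKO against Rb KO. All intervals against WT lie below 0. Those of Gnat1 (0.36 to 2.01) and Pde6a (0.16 to 1.70) in DKO against Rb KO lie above 0 before adjustment, and the other 6 include 0.

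Added loss of p107 was addressed by DKO against Rb KO. None of the 8 genes passed in limma (adjusted p = 0.154 to 0.993), against 2.54% of all genes called in either direction. At an unadjusted p under 0.05 there were 2 of 8 cascade genes and 3293 of 24259 genes. Gnat1 and Pde6a were the 2, both higher in DKO. Gnat1 stood at 1.18 (95% interval 0.36 to 2.01, adjusted p = 0.154) and Pde6a at 0.93 (0.16 to 1.70, adjusted p = 0.249). Without DKO replicate 1 Gnat1 passed (1.65, adjusted p = 0.0210), the sole call on a cascade gene among the 17 alternatives to this comparison. Without the lens-rich DKO replicate 2 it stood at 0.86 (adjusted p = 0.389). The other 6 genes lay between -0.30 and -0.02, and their intervals reached from -0.82 at the lowest to 0.55 at the highest, so differences of that size between the mutants remain possible.

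Within a group the 8 genes moved together from array to array. DKO replicate 1 was the lowest DKO array for 8 of 8 genes, and DKO replicate 2 was the highest for 8 of 8. Rb KO replicate 3 was the highest Rb KO array for 8 of 8, and Rb KO replicate 2 the lowest for 6, all but Gnb1 and Gngt1. Over all genes these arrays held the same place for 31.2%, 30.5%, 27.5% and 36.4%. In WT the extremes were spread over the 3 arrays. Averaged over the 8 genes, the distance from the WT mean was -1.83, -0.94 and -1.17 in DKO, -1.60, -1.83 and -0.91 in Rb KO, and at most 0.03 in size in the WT arrays. The SD over 3 arrays was 0.12 to 0.83 in DKO and 0.19 to 0.68 in Rb KO, against 0.04 to 0.18 in WT.

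Markers of other cells also differed between these arrays. Cycling cell markers (5 of 7 measured) had mean log2 intensities of 10.34, 10.11 and 10.13 in DKO, 9.96, 10.05 and 9.65 in Rb KO, and 6.54 to 6.67 in WT. They were thus highest in DKO replicate 1 and lowest in Rb KO replicate 3 among the arrays of their group, the reverse of the cascade. Bipolar markers (6 of 8 measured) ran with the cascade, at 8.24, 9.02 and 8.73 in DKO, 8.38, 8.23 and 9.09 in Rb KO, and 10.05 to 10.25 in WT. Cone markers kept the same order, at 7.58, 8.31 and 8.09 in DKO and 7.77, 7.59 and 8.21 in Rb KO. So did ganglion markers, at 8.96, 9.26 and 9.17 in DKO and 9.11, 9.01 and 9.48 in Rb KO. Amacrine, horizontal and microglial markers were instead lowest in DKO replicate 2 and Rb KO replicate 3. The part of any of these lists in the array-to-array spread of the cascade was not tested.

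**Figure D3:**
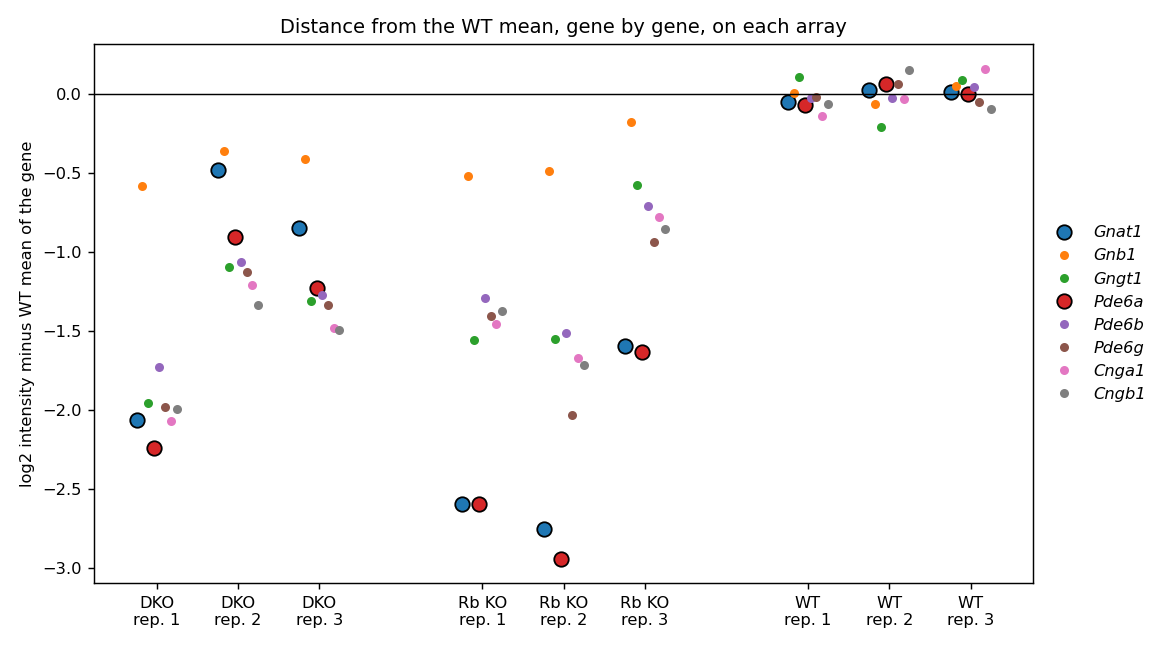
Log2 intensity minus the WT mean of the same gene, for each of the 8 genes on each of the 9 arrays (rep., replicate). Gnat1 and Pde6a are outlined. They lie below the other genes on all 3 Rb KO arrays, while on DKO replicates 2 and 3 they lie among or above them.

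Gnat1 and Pde6a parted from the other 6 genes in Rb KO, a grouping chosen after the values were seen and given without a test. Relative to the mean distance of the other 6 from WT, Gnat1 stood at -0.35, 0.55 and 0.37 in DKO and at -1.33, -1.26 and -0.93 in Rb KO. Pde6a stood at -0.52, 0.12 and -0.01 in DKO and at -1.33, -1.45 and -0.96 in Rb KO. By this measure both genes lay lower on the Rb KO arrays than on the DKO arrays, which follows in part from that choice. The share of all genes that differed so was not computed. Outside the cascade, the calcium feedback gene Slc24a1 also stood lower in Rb KO (-3.21) than in DKO (-2.31) against WT. It was above background on only 1 Rb KO array and 2 DKO arrays. In the level itself the arrays of the mutants overlapped, and neither gene was called between them. In WT both measures stayed close to 0, at -0.05 to 0.09.

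Cones use a parallel cascade of their own subunits, of which 4 of 7 were measured (Gnb3, Gngt2, Pde6c and Pde6h). In DKO against WT 4 of 4 fell, with a median of -1.55, and in Rb KO against WT 2 fell and 2 did not pass, with a median of -1.21. Gnb3, the β subunit of cone transducin, which bipolar cells also express, read 9.64, 10.22 and 10.04 in DKO, 10.82, 10.55 and 11.05 in Rb KO, and 11.13, 11.22 and 11.05 in WT. It fell by 1.17 in DKO against WT (SE 0.153, adjusted p = 2.46e-04), stood at -0.33 in Rb KO against WT (adjusted p = 0.150) and was lower in DKO than in Rb KO by a tested -0.84 (adjusted p = 0.0178). Pde6c, the cone catalytic subunit, stood at -2.11 in DKO against WT (SE 0.402, adjusted p = 0.00259) and at -2.44 in Rb KO against WT (adjusted p = 0.00137), with 2 DKO arrays and 1 Rb KO array above background. Pde6h, the cone inhibitory subunit, was not above background in any mutant array, and was at least 1.14-fold lower in DKO and at least 1.13-fold lower in Rb KO when the mutant was set at the background percentile (adjusted p = 3.58e-06 and 3.06e-06). Gngt2 was not above background on any array, so its calls rest on background readings.

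Genes that end the light response fell with those that start it. Of 10 measured genes of recovery and calcium feedback 9 fell in each mutant against WT, with medians of -1.73 in DKO and -1.67 in Rb KO. Counts of falls in this and the other lists stand against 17.1% of all genes in DKO and 14.3% in Rb KO. Guca1a and Guca1b were not above background in either mutant, nor Gucy2f in DKO, so the medians include background readings. Rcvrn, the calcium sensor recoverin, read 9.01, 10.13 and 9.85 in DKO, 9.34, 8.95 and 10.26 in Rb KO, and 11.77, 11.79 and 11.66 in WT. Its log2 fold change was -2.07 in DKO against WT (SE 0.320, adjusted p = 7.01e-04) and -2.22 in Rb KO against WT. Grk1, a photoreceptor kinase that helps end the light response, stood at -1.78 and -1.98 (SE 0.279, adjusted p = 7.66e-04 and 5.23e-04). Rgs9bp, which anchors the complex that switches transducin off, did not pass, at -0.59 in DKO (adjusted p = 0.0798) and -0.64 in Rb KO (adjusted p = 0.0689). No gene of this list passed between the mutants.

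Genes whose proteins help fold, assemble or carry the cascade were mostly lower. Of 7 measured 6 fell in each mutant, with medians of -1.11 in DKO and -0.96 in Rb KO against WT. Aipl1, the chaperone that phosphodiesterase 6 needs for assembly, stood at -1.68 in DKO (SE 0.301, adjusted p = 0.00173) and -2.04 in Rb KO (adjusted p = 6.87e-04). Unc119, a carrier of the lipid-tailed transducin α subunit, stood at -1.21 in DKO (SE 0.153, adjusted p = 1.97e-04) and -0.96 in Rb KO (adjusted p = 0.00109). Rpgr, a ciliary protein, did not pass in either (0.02 and 0.06).

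The transcription factors that govern rod genes did not move as a block. Of 7 measured, 3 fell, 1 rose and 3 did not pass in DKO against WT, and 3 fell, 3 rose and 1 did not pass in Rb KO against WT. The share of all genes that rose was 12.2% in DKO against WT and 10.2% in Rb KO against WT. Crx, the photoreceptor homeodomain factor, read 10.99, 11.4 and 11.33 in DKO, 11.74, 11.7 and 12.07 in Rb KO, and 12.25, 12.33 and 12.31 in WT. The 3 groups did not overlap. Crx fell by 1.06 in DKO against WT (SE 0.123, adjusted p = 1.12e-04) and by 0.46 in Rb KO against WT (adjusted p = 0.0196).

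Nrl, the factor that sets rod fate, read 8.19, 8.57 and 8.48 in DKO, 9.04, 8.80 and 9.30 in Rb KO, and 9.92, 10.01 and 9.90 in WT, with 1 DKO array not above background. It fell by 1.53 in DKO against WT (SE 0.130, adjusted p = 1.26e-05) and by 0.90 in Rb KO against WT (adjusted p = 6.22e-04). In DKO against Rb KO, where 1.21% of all genes were called lower, 4 of the 7 factors were: Crx (-0.60, adjusted p = 0.0297), Nrl (-0.63, adjusted p = 0.0304), Otx2 (-0.57, adjusted p = 0.00469) and Prdm1 (-0.88, adjusted p = 4.68e-04). Otx2, which acts before Crx in photoreceptor fate, rose by 0.42 in Rb KO against WT (adjusted p = 0.0035) and stood at -0.15 in DKO (adjusted p = 0.217). Prdm1, which holds young photoreceptors back from the bipolar fate, rose by 1.10 in Rb KO against WT (SE 0.0900, adjusted p = 1.29e-05) and did not pass in DKO (0.22, adjusted p = 0.0933). Rorb, which acts before Nrl in rod fate, rose in both (0.47 and 0.38), and Mef2c was not above background on any array. Esrrb, an orphan nuclear receptor of rods, was not above background in either mutant and read 8.90 to 9.21 in WT. It fell at least 1.57-fold in DKO (adjusted p = 8.05e-05) and at least 1.56-fold in Rb KO (adjusted p = 4.76e-05). The windows of Cngb1, Gngt1, Pde6b and Cnga1 printed above hold the TAATC core. In DKO against Rb KO these genes stood at -0.30, -0.23, -0.19 and -0.29, and Gnb1, whose window lacks the core, at -0.05. Gnat1, Pde6a and Pde6g, for which no window was used, stood at 1.18, 0.93 and -0.02. None was called, and any link between these letters and the levels was not tested.

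Subunits of the same families not specific to rods had medians of -0.19 in DKO and -0.06 in Rb KO against WT. Among 15 measured, 5 fell and 2 rose in DKO and 6 fell and 1 rose in Rb KO. Gng2, a γ subunit used widely in neurons, rose by 0.89 in DKO (SE 0.108, adjusted p = 1.45e-04) and by 0.68 in Rb KO (adjusted p = 0.00109). Gnao1, an abundant neuronal α subunit, did not pass (-0.04 and -0.02). The lowest value in this list was -0.61 (Gng13 in Rb KO), and 3 of the 15 were not above background on any array. Among the falls, Gng4 and Gng13 in both mutants, Gng11 in DKO and Gng7 in Rb KO had no mutant array above background. The size of those falls was thus limited by background.

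**Figure D4:**
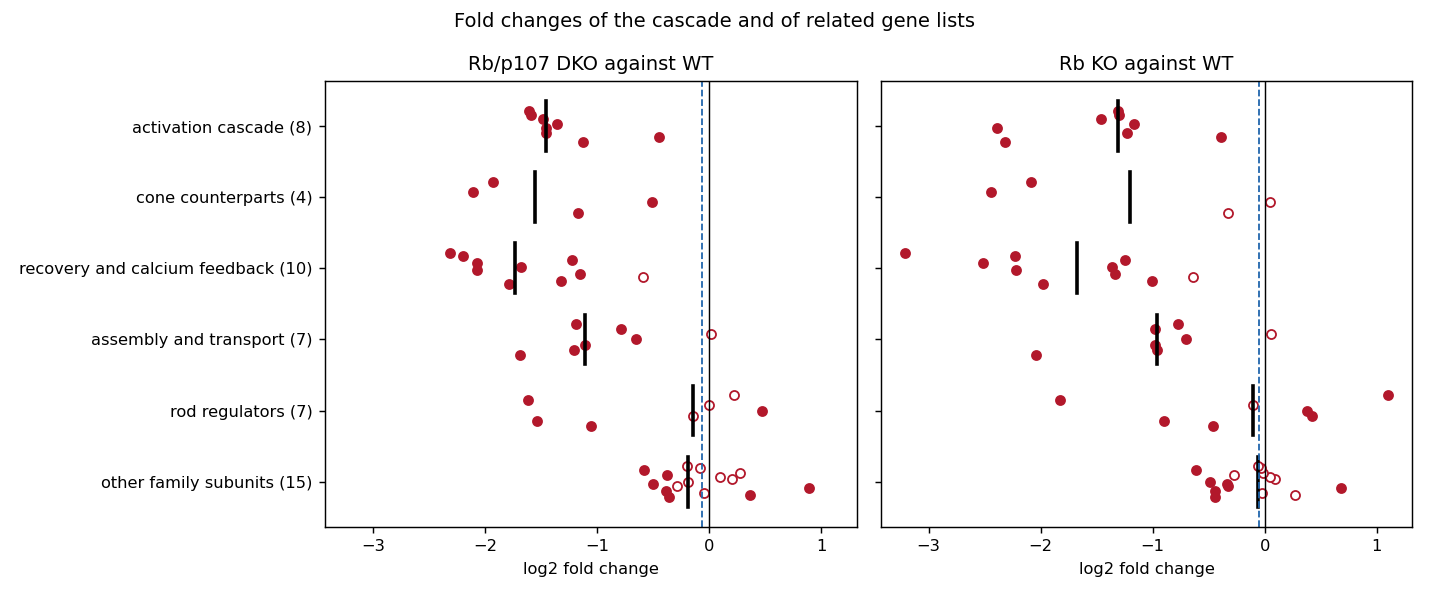
Log2 fold change of the activation cascade and of 5 related lists in DKO against WT (left) and Rb KO against WT (right), 1 point a gene, filled where called and open where not, with the number of measured genes in brackets. Thick bars are list medians and the dashed line is the median of all genes. The cascade medians (-1.45 and -1.31) lie left of those of the rod regulators (-0.15 and -0.11) and right of those of the recovery genes (-1.73 and -1.67).

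Retinal markers checked the tissue. Of 10 rod markers 6 were measured and above background on all WT arrays, 3 of them members of the cascade. The 3 that are not, Nrl, Rom1 and Prph2, fell in both mutants, Rom1 by 1.49 and 1.09 and Prph2 by 1.24 and 1.13. Markers of other cells moved beside the cascade, and the counts below stand against the shares of all genes that fell (17.1% in DKO and 14.3% in Rb KO) or rose (12.2% and 10.2%). The summed intensity of 5 cycling cell markers was 9271 to 10713 in DKO and 7009 to 9389 in Rb KO, against 487 to 536 in WT, and 5 of 5 rose in both mutants. The sum of 6 bipolar markers was 2043 to 3561 in DKO and 2157 to 3970 in Rb KO, against 7245 to 8438 in WT, with 6 of 6 falling. The sum of 6 microglial markers was 1830 to 2468 in DKO and 1400 to 2201 in Rb KO, against 1052 to 1152 in WT, with 3 and 4 rising. The sum of 5 pigment epithelium markers was 532 to 658 in DKO and 572 to 672 in Rb KO, against 1510 to 1946 in WT, with 5 of 5 falling. Of these lists 1 cycling, 3 microglial and 2 pigment epithelium markers were not above background on any array. No pigment epithelium marker was above background on any mutant array, and no cycling cell marker on any WT array. The lower sums of these lists are thus sums of background readings, and the size of those changes was not measured. Cone markers fell in 6 of 6 in DKO and 5 of 6 in Rb KO, ganglion markers in 6 of 6 in both, Müller glia markers in 3 of 5 in both and endothelial markers in 3 and 2 of 4. Lens markers rose in 3 of 4 in DKO and 0 of 4 in Rb KO, amacrine markers in 1 of 2 and horizontal markers in 1 of 3 in both, and the 1 erythrocyte marker did not pass. In the cone, horizontal, lens and erythrocyte lists 1 marker each was not above background on any array. Pde6h (cone), Sebox (bipolar), Slc1a3 and Aqp4 (Müller glia), and Cldn5, Cdh5 and Pecam1 (endothelium) were not above background on any mutant array. Nor were Opn1mw in Rb KO, or Rbpms and Pou4f1 in DKO. Without the lens-rich DKO replicate 2, 8 of 8 cascade genes were still called in DKO against WT. The part of these cells in the falls of the cascade was not tested.

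Genes outside the cascade whose array profile was closest to its mean were ranked by root mean square distance over the 9 arrays, after each gene's WT mean was taken off. Of 6845 genes above background on all WT arrays, the closest were Herc3 (distance 0.108), Osbp2 (0.110), Pcp2 (0.147), Prkca (0.156), Rtbdn (0.157), Me1 (0.158), Fam169a (0.158), Pygm (0.169), Gnb5 (0.172) and Alpl (0.176). The median distance over those genes was 1.13. Pcp2 and Alpl were above background on only 2 DKO arrays and 1 Rb KO array, and Pygm on 2 of each, so part of their profiles is background readings. Osbp2 is an oxysterol-binding protein, Rtbdn (retbindin) a riboflavin-binding protein made by rods, and Prkca and Pcp2 are standard markers of bipolar cells. Gnb5, which works with Rgs9 to switch transducin off, fell by 1.16 in DKO (SE 0.166, adjusted p = 4.40e-04) and by 1.33 in Rb KO against WT (adjusted p = 2.35e-04). Within the cascade Pde6g was closest to the mean profile (0.137) and Gnb1 farthest from it (0.816), followed by Pde6a (0.571) and Gnat1 (0.547).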

How the data were processed

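Retinal RNA of 9 mouse samples was measured, 3 each of Rb/p107 DKO, Rb KO and WT. The authors deposited log2 intensities per probe set, summarised by RMA per the submitters' processing notes; its version and the annotation's genome build are not given in the sources used here. Of 52917 transcript clusters 24646 had 1 gene symbol in the platform annotation, 1795 several and 26476 none listed; 663 symbols were updated by gene identifier (assembly GRCm38.p6), and a gene was read from its brightest probe set, with no filter. Across all genes, limma 3.58.1 (R 4.3.3) fitted group means of all 9 arrays (6 residual and 4.69 prior degrees of freedom); SE is that of a log2 fold change, intervals are 95%. Where no array of the lower group was above background, a fold is a bound against the background percentile. Alternatives were 8 other settings and the 9 fits that leave out an array. The cascade genes, lists and rules were chosen with earlier results of these data known. Genes named are the cascade, the lists and the 10 closest profiles. The number of arrays limits precision. Figures used matplotlib 3.10.9.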

Additional observations from a re-analysis of the deposited data

How the results depend on the processing

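Of 272 refits of a cascade gene against WT, 17 for each gene and comparison, 260 kept call and direction, 12 lost the call and 0 reversed. Besides the array omissions named above, the Gnat1 call in DKO against WT ended with trended and robust variances (-1.13, adjusted p = 0.0851). With control separation as a covariate, the calls ended for Gnat1 (-1.05, adjusted p = 0.199) and Pde6a (-1.38, adjusted p = 0.0831) in DKO and Gnb1 (-0.41, adjusted p = 0.0585) in Rb KO, at folds close to -1.13, -1.46 and -0.39 in the reported fit. The replicate block left 8, 8 and 0 cascade genes called in DKO against WT, Rb KO against WT and DKO against Rb KO. Over all genes the block moved the counts to 6666, 5453 and 501, against 7113, 5923 and 617. Deviations of same-numbered arrays correlated at r = -0.162 to 0.145, against -0.33 to 0.246 for arrays of different number. No pairing by number was seen, which so few arrays could not exclude. In DKO against Rb KO, leaving out 1 array gave 0 to 1 cascade genes and 253 to 859 genes in all; it fell to 302 and 300 without Rb KO replicate 1 or 3, and to 271 and 253 without DKO replicate 1 or 3. With only genes above background on at least 3 arrays, 4330 genes were called in DKO against WT, since fewer were tested. The F test, with the block or renewed quantile normalization (both added after the data were seen), called 8.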
